A study of Mus musculus with 23 samples.

Results

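The day 7 response of the mouse heart to isoproterenol (ISO) was set against the day 7 response to lipopolysaccharide (LPS), gene by gene. The quantity was a difference of differences, the change at ISO day 7 from ISO baseline minus the change at LPS day 7 from LPS baseline, on the log2 scale. A value below 0 therefore means that a gene's change was lower in the ISO arm, and a value above 0 that it was higher. Libraries were taken by their labels, which put 16 of the 23 libraries of the study in the 4 groups needed, with 4 libraries in each. All mice were female, wild-type and of the inbred strain C57BL/6J, at 10 weeks of age. ISO day 7 hearts came 7 days after isoproterenol at 300 mg/kg, and ISO baseline hearts came from untreated mice assigned to that arm. LPS day 7 hearts came 7 days after lipopolysaccharide at 2.5 mg/kg, and LPS baseline hearts came from untreated mice assigned to the other arm. Poly-A RNA of the whole heart was sequenced, so each library mixes all cell types of the organ. Each agent was given at 1 dose, and the agent cannot be told apart from anything else that was handled separately for its arm. The design text describes separate mice, so the spread within a group covers animals and library making together.

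Isoproterenol is a synthetic agonist of beta-adrenergic receptors, which raise cyclic AMP and the rate and force of the heartbeat, and a high dose injures heart muscle. Lipopolysaccharide is a component of the outer membrane of Gram-negative bacteria that is sensed by Toll-like receptor 4 and drives inflammation and interferon production. Natural killer cells and cytotoxic T cells kill target cells with granzymes and perforin, and are a major source of interferon gamma. Interferon gamma raises antigen presentation genes of MHC class I and class II and the immunity-related GTPases (IRG), which act against intracellular pathogens in mouse cells.

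The 16 libraries held between 20910371 and 30368954 estimated reads on genes. Cardiac genes were abundant throughout, with Myh6, the adult cardiac myosin heavy chain, at 12097 to 15461 TPM (transcripts scaled for gene length and library size) and Tnnt2, cardiac troponin T, at 5540 to 7074 TPM. Mitochondrially encoded transcripts took 23.2% to 29.3% of reads and haemoglobin transcripts 0.0164% to 0.454%. ISO day 7 replicate 3 stood apart from its group. Its median absolute log2 distance from the other 3 libraries of its group was 0.183, while the other 15 libraries lay at 0.102 to 0.161. Many results that turn on this library are given with and without it.

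Of 15732 genes tested, 72 differed in their day 7 change between the arms (edgeR quasi-likelihood F test, two-sided, Benjamini-Hochberg adjusted p under 0.05), or 0.458%. The change was lower in the ISO arm for 57 genes (0.362%) and higher for 15 (0.0953%). An unadjusted p under 0.05 was reached by 1488 genes, or 9.45%. The difference was at least 2-fold for 48 of the 57 lower genes and for 2 of the 15 higher genes. Among the 57 the median difference was -1.54, with a median ISO change of -0.09 and a median LPS change of 1.66. Among the 15 the median difference was 0.52, with a median ISO change of 0.08 and a median LPS change of -0.44. The median over all genes tested was 0.00 for the difference and for each arm's change. The change within the ISO arm was called for 0 of the 72 genes (0.00636% of all tested). The LPS change was called for all 72, upward for the 57 (5.96% of all tested rose there) and downward for the 15 (3.13% fell). CPM, the reads of a gene scaled to library size with TMM factors, lay above all of the other 12 libraries at LPS day 7 for 52 of the 57 genes, and below them for 12 of the 15. These shares describe genes picked by the test and are not further support for it.

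**Figure D1:**
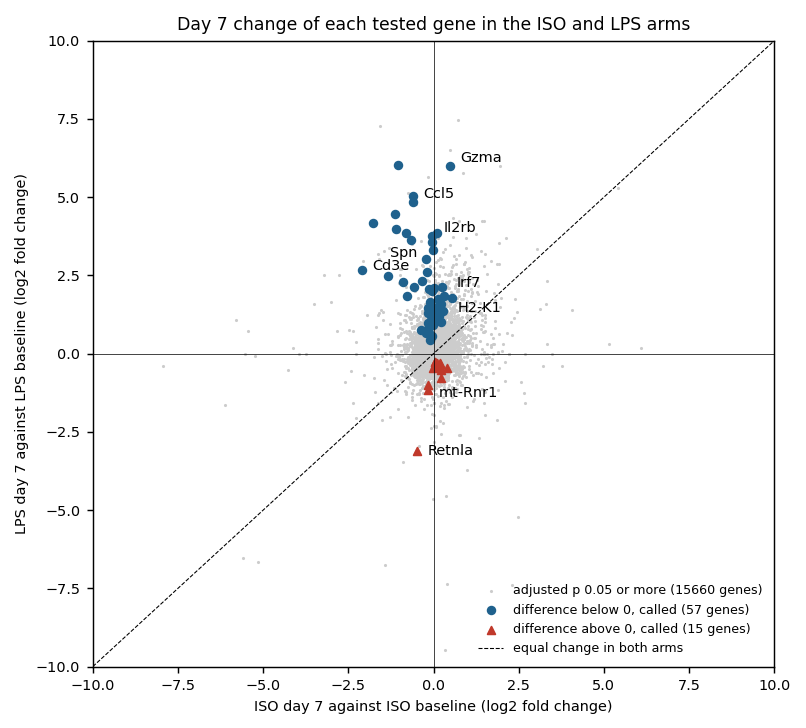
Each point is 1 of the 15732 genes tested, with its log2 fold change at ISO day 7 against ISO baseline on the x axis and at LPS day 7 against LPS baseline on the y axis; the dashed line marks an equal change in both arms. The 57 blue circles lie above the line, at ISO changes of -2.11 to 0.55 (median -0.09). The 15 red triangles lie below it, with LPS changes of -3.13 to -0.25.

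Seen alone, the ISO arm had 1 gene called at day 7 and the LPS arm had 1431 (9.10%), of which 938 were higher and 493 lower. That split depends on the scaling: with library totals 2421 were higher and 90 lower, and with log2(TPM + 0.1) 2035 and 44, while the median change of all genes became 0.16 and 0.20. A call in 1 arm and none in the other does not show that the arms differ, and a difference of differences was called for far fewer genes than the LPS change. Its standard error had a median of 0.17 over all genes tested, against 0.12 for the change within each arm. Without ISO day 7 replicate 3 the test called 320 of 15672 genes, 72 higher and 248 lower, and these included all 72. With any other single library left out, 40 to 68 genes were called.

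Natural killer and cytotoxic genes had the lowest median difference of the 43 gene lists. Of the 15 listed, 10 had enough reads to be tested, and 6 of those had a lower day 7 change in the ISO arm (0.362% of all tested genes did). These were Il2rb, the interleukin-2 receptor beta chain, Ccl5, a chemokine of activated lymphocytes, Nkg7, a cytotoxic granule protein, the granzyme genes Gzma and Gzmb, and Prf1, perforin. The median difference of the 10 was -5.38 on the log2 scale of counts, with an ISO change of -0.34 and an LPS change of 4.81. All 10 rose at LPS day 7 and 0 were called at ISO day 7. The genes are nearly silent outside that group, so a filter that needs reads in 1 group passes them mainly through LPS day 7, and the size of the difference depends on the scale. On log2(TPM + 0.1) the median was -3.40 and on log2(TPM + 1) it was -1.16, with 9 of the 10 called on each.

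Il2rb (ENSMUSG00000068227, chromosome 15, 78479256 to 78495271, mm10) stood at 0.247, 0.577, 0.755 and 0.485 CPM in ISO day 7 hearts and at 0.667, 0.339, 0.296 and 0.797 CPM in ISO baseline hearts. It reached 6.78, 6.95, 6.18 and 5.98 CPM in LPS day 7 hearts, against 0.507, 0.382, 0.632 and 0.356 CPM in LPS baseline hearts. The 4 LPS day 7 libraries lay close together and far above the other 12, which overlapped one another. The difference of differences was -3.80 (SE 0.44, edgeR adjusted p = 8.42e-05). Ccl5 (chromosome 11, 83525778 to 83530518) had 0.106, 0.509, 0.230 and 0.149 CPM in ISO day 7 hearts and 0.704, 0.388, 0.333 and 0.114 CPM in ISO baseline hearts. Its LPS day 7 libraries held 3.59, 4.50, 5.58 and 4.58 CPM and its LPS baseline libraries 0.253, 0.0765, 0.118 and 0.158 CPM. Again only the LPS day 7 group was set apart, and the difference was -5.47 (SE 0.66, edgeR adjusted p = 8.42e-05). Both calls held in all 31 alternative analyses.

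The effector genes of killing were carried by few reads outside LPS day 7. Gzma, granzyme A, had 16 reads over the ISO day 7 group and 10 over ISO baseline, and 416 reads over LPS day 7 against 6 over LPS baseline. Its CPM was 0.112 to 0.164 in ISO day 7 hearts, 0.0380 to 0.222 in ISO baseline hearts, 2.89 to 4.66 in LPS day 7 hearts and 0 to 0.109 in LPS baseline hearts, and the LPS day 7 range did not meet the others. The difference was -5.53 (SE 0.83, edgeR adjusted p = 0.002). Prf1 had 6, 12, 186 and 8 reads over ISO day 7, ISO baseline, LPS day 7 and LPS baseline, and Gzmb had 5, 7, 148 and 4. The edgeR adjusted p was 0.0129 for Prf1 and 0.00871 for Gzmb. Each of these 3 calls was lost when ISO baseline replicate 1, whose CPM of each was the highest of its group, was left out (Gzma edgeR adjusted p = 0.057, Gzmb 0.0827, Prf1 0.357). Nkg7 kept its call under every alternative, at -4.66 (SE 0.68, edgeR adjusted p = 0.00109), with 0.0353 to 0.102 CPM in ISO day 7 hearts, 0.0370 to 0.194 in ISO baseline hearts, 1.39 to 1.91 in LPS day 7 hearts and 0.0724 to 0.158 in LPS baseline hearts.

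Receptors found on natural killer cells did not pass the test with all libraries. The filter on low counts passed them mainly through LPS day 7, so the direction of their values is no further support. Klrk1, the activating receptor NKG2D, had 7, 7, 126 and 2 reads over ISO day 7, ISO baseline, LPS day 7 and LPS baseline (edgeR adjusted p = 0.0713, or 0.0317 without ISO day 7 replicate 3). Ncr1, the receptor NKp46, had 3, 4, 95 and 3 reads in the same order (edgeR adjusted p = 0.116). Eomes and Klrb1c were the other 2 tested members that were not called, and Klrd1, Klre1, Klra8, Klra4 and Fasl fell below the filter on low counts. Summed over the 10 tested members, the list stood at 0.742, 1.77, 1.87 and 1.04 CPM in ISO day 7 hearts, 2.59, 1.16, 0.889 and 1.37 in ISO baseline hearts, 23.9, 25.04, 23.8 and 20.4 in LPS day 7 hearts and 1.12, 0.879, 1.03 and 0.870 in LPS baseline hearts. In whole hearts, more cells of a type and more RNA per cell cannot be told apart.

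Cytotoxic genes outside the list were among the 72 as well. Ctsw, cathepsin W of cytotoxic lymphocytes, had 5, 16, 135 and 7 reads over ISO day 7, ISO baseline, LPS day 7 and LPS baseline, and a difference of -5.92 (SE 0.90, edgeR adjusted p = 0.00168). Xcl1, the chemokine lymphotactin, had 3, 6, 98 and 1 reads (edgeR adjusted p = 0.0324), and its fitted difference of -7.08, the lowest of all 72, rests on that single LPS baseline read. The Xcl1 call was lost without any 1 of 8 libraries (highest edgeR adjusted p = 0.337). Spn, the leukocyte surface sialophorin CD43, gave the smallest adjusted p. Spn (ENSMUSG00000051457, chromosome 7, 127132232 to 127137823) stood at 0.742, 0.985, 1.05 and 0.746 CPM in ISO day 7 hearts and 0.964, 1.26, 0.889 and 1.06 CPM in ISO baseline hearts, and at 3.68, 4.81, 4.49 and 3.81 CPM in LPS day 7 hearts, against 0.543, 0.612, 0.434 and 0.435 CPM in LPS baseline hearts. The LPS day 7 libraries were the highest and the LPS baseline libraries the lowest, with no overlap between either and the ISO arm, and the ISO groups overlapped. The difference was -3.27 (SE 0.28, edgeR adjusted p = 1.21e-06). The baselines themselves differed for Spn, by 1.03 for ISO baseline against LPS baseline (edgeR adjusted p = 0.0163), so part of its value lies in the untreated hearts.

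T cell genes passed in 3 of 10 tested members of a list of 17, all lower in the ISO arm, and the median difference was -2.71 (ISO change -0.14, LPS change 2.50). They were Ms4a4b, a T cell membrane protein (-5.07, SE 0.91, edgeR adjusted p = 0.00717), Lck, the kinase that starts T cell receptor signalling (-3.31, SE 0.69, edgeR adjusted p = 0.0289), and Cd3e, a T cell receptor subunit. Cd3e had 0, 0.0679, 0.0328 and 0 CPM in ISO day 7 hearts, 0.222, 0.0970, 0.111 and 0.0759 in ISO baseline hearts, 0.163, 0.601, 0.421 and 0.361 in LPS day 7 hearts and 0.0724, 0.0765, 0.0395 and 0.0395 in LPS baseline hearts. Its LPS day 7 range overlapped that of ISO baseline, and with 3 reads over the ISO day 7 group its fitted difference of -4.78 (SE 1.03, edgeR adjusted p = 0.0339) is uncertain in size. The Lck call was lost without any 1 of 9 libraries (highest edgeR adjusted p = 0.119), and Cd3e without any 1 of 9 of the 13 that left it testable (0.146). Cd2, an adhesion receptor of T and natural killer cells, did not pass with all libraries, at -2.89 (SE 0.68, edgeR adjusted p = 0.0621). It did without ISO day 7 replicate 3 (edgeR adjusted p = 0.0438). Summed over the 10 members, T cell genes stood at 2.20 to 3.02 CPM in ISO day 7 hearts, 2.11 to 3.67 in ISO baseline hearts, 6.05 to 9.89 in LPS day 7 hearts and 2.03 to 2.80 in LPS baseline hearts. Of 8 listed thymocyte genes 3 were tested, Cd1d1, Satb1 and Tcf7, which other cells express as well. None of the 3 was called in the difference (edgeR; 1 at an unadjusted p under 0.05), the values of Cd1d1 and Satb1 were -0.33 and -0.02, and Tcf7 (-1.09, edgeR adjusted p = 0.465) rose at LPS day 7. The part of thymus tissue in these results was not tested. Their sum was 23.8 to 25.9, 24.3 to 27.98, 24.2 to 26.1 and 23.1 to 26.4 CPM in those groups.

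The genes in the next sentences were in no list and were picked from the 57 after their values were seen. Cxcr3, the receptor of interferon-induced chemokines on activated T and natural killer cells, had a difference of -3.83 (SE 0.66, edgeR adjusted p = 0.00485). Its CPM was 0.0707, 0.0340, 0.263 and 0.149 in ISO day 7 hearts, 0.334, 0.242, 0.445 and 0.304 in ISO baseline hearts, 0.980, 0.713, 1.02 and 0.843 in LPS day 7 hearts and 0.145, 0.0765, 0.158 and 0.237 in LPS baseline hearts. All ISO day 7 values but that of replicate 3 lay below every ISO baseline value, and the LPS day 7 values were above all others. Others among the 57 were Gimap3, a lymphocyte GTPase (-2.72), Ltb, lymphotoxin beta (-3.18), Sh2d2a, a T cell adaptor (-3.61), Ptpn22, a lymphocyte phosphatase (-2.61), and Ikzf1, the lymphoid transcription factor Ikaros (-1.38). The calls of Cxcr3, Gimap3 and Ikzf1 held whichever library was left out, and those of Ptpn22, Ltb and Sh2d2a were lost without any 1 of 12, 8 and 3 libraries.

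**Figure D2:**
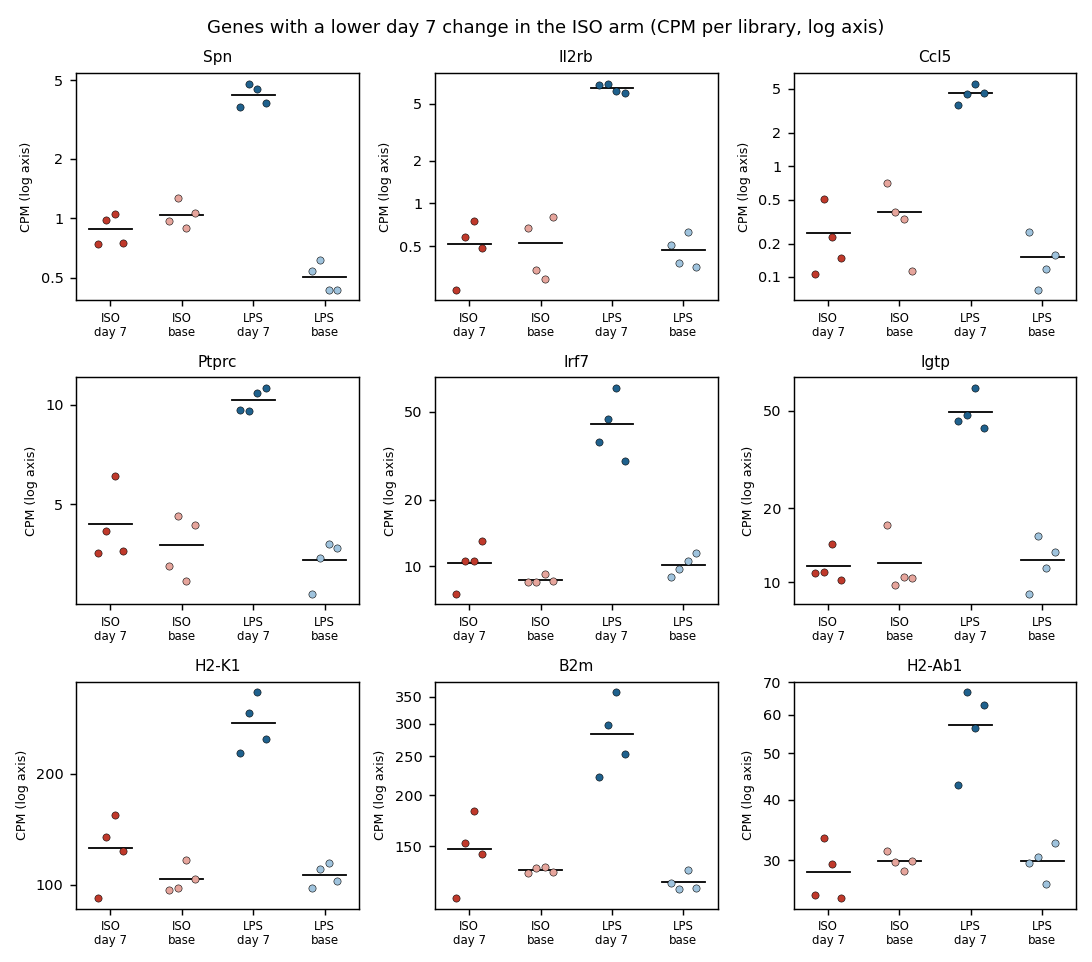
CPM of 9 genes in each of the 16 libraries, on a log axis, with the mean of each group as a bar. For each gene the 4 LPS day 7 points lie above the 12 others, and the ISO day 7 points overlap those of ISO baseline.

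Immunity-related GTPases and interferon-pathway genes formed the next group. Of 17 tested genes of the guanylate-binding protein (GBP) and IRG families, 3 had a lower change in the ISO arm, all of the IRG family, with a median of -0.53 over the list. These were Igtp (also called Irgm3), Irgm2 and Iigp1, and 8 of the 17 rose at LPS day 7 with 0 called at ISO day 7. Igtp (chromosome 11, 58199556 to 58207591) stood at 10.8, 10.97, 14.3 and 10.2 CPM in ISO day 7 hearts and 17.1, 9.75, 10.4 and 10.4 in ISO baseline hearts, with replicate 1 the highest. It stood at 45.4, 48.2, 62.00 and 42.6 CPM in LPS day 7 hearts, against 8.94, 15.4, 11.4 and 13.3 in LPS baseline hearts, and the LPS day 7 libraries were clear of the rest. The difference was -2.06 (SE 0.30, edgeR adjusted p = 0.00109). Irgm2 (chromosome 11, 58199618 to 58222782) stood at 19.2, 20.6, 20.7 and 17.6 CPM in ISO day 7 hearts and 22.4, 15.9, 19.5 and 20.1 in ISO baseline hearts, and at 48.6, 50.9, 63.2 and 41.3 CPM in LPS day 7 hearts, against 18.1, 20.1, 19.9 and 20.2 in LPS baseline hearts. Its difference was -1.38 (SE 0.16, edgeR adjusted p = 8.42e-05). Igtp and Irgm2 overlap on the same strand in GENCODE, so the split of reads between them is uncertain.

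Some further IRG genes had the same pattern and others did not. Of the 17 differences of the GBP and IRG list, 14 were below 0 and 3 above. Tgtp2 (0.41, edgeR adjusted p = 0.753) and Tgtp1 (0.16, 0.955) were above 0, and Gm4951 was below 0 but not called (-1.44, 0.288). Iigp1 differed by -1.45 (SE 0.24, edgeR adjusted p = 0.00397), with 20.3 to 36.7 CPM in ISO day 7 hearts, 23.8 to 33.4 in ISO baseline hearts, 48.4 to 72.3 in LPS day 7 hearts and 20.3 to 27.9 in LPS baseline hearts. F830016B08Rik, for which RefSeq gives the synonym Ifgga4, differed by -2.79 (SE 0.38, edgeR adjusted p = 0.00045). It held 8.20, 7.47, 8.76 and 4.21 CPM in ISO day 7 hearts, 8.23, 8.73, 6.70 and 9.15 in ISO baseline hearts, 32.4, 50.3, 69.9 and 48.9 in LPS day 7 hearts and 5.21, 8.03, 6.16 and 13.9 in LPS baseline hearts. The pseudogene BC023105 differed by -3.78 (edgeR adjusted p = 0.000177) and Gm4841, with the RefSeq synonym Ifgga3, by -4.29 (0.0391). Gm4841 was at 3.45 CPM in ISO baseline replicate 1 and at 0.266 to 0.485 CPM in the other 3 libraries of that group, and without that replicate the edgeR adjusted p was 0.519. Reads of these near-identical genes can be split unevenly by the authors' quantification, so single values are uncertain. Irgm1 did not pass with all libraries (-0.96, SE 0.24, edgeR adjusted p = 0.0956) and did without ISO day 7 replicate 3 (0.0482), and of 10 Gbp genes 0 did, with Gbp2 at -0.53 (0.47).

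Of 30 tested interferon-stimulated genes, 2 were called, among them Irf7, with a list median of -0.33. Irf7 (chromosome 7, 141262706 to 141266481), the transcription factor that amplifies type I interferon, stood at 7.49, 10.5, 10.6 and 12.98 CPM in ISO day 7 hearts and 8.49, 8.48, 9.19 and 8.58 in ISO baseline hearts, and at 36.4, 46.2, 64.3 and 30.1 CPM in LPS day 7 hearts, against 8.94, 9.75, 10.5 and 11.5 in LPS baseline hearts. The difference was -1.87 (SE 0.25, edgeR adjusted p = 0.000266), and only the LPS day 7 libraries lay apart. In the LPS arm 14 of the 30 rose, and 29 of the 30 differences were below 0, but most were small. Ifit3b was at -0.87 (SE 0.28, edgeR adjusted p = 0.247) and Zbp1 at -1.46 (0.232).

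Antigen presentation genes of both classes held calls, all of them lower in the ISO arm. Of 19 MHC class I and peptide loading genes, 3 were called, H2-K1 and H2-D1, the classical heavy chains of this strain, and B2m, their shared light chain. H2-K1 (chromosome 17, 33996017 to 34000347) stood at 91.8, 134, 155 and 123 CPM in ISO day 7 hearts and 96.4, 98.1, 116 and 103 in ISO baseline hearts. In LPS day 7 hearts it stood at 227, 293, 334 and 249 CPM, against 98.1, 110.4, 115 and 102 in LPS baseline hearts. The LPS day 7 libraries were above all others, and 3 of the 4 ISO day 7 libraries lay above every ISO baseline library. The difference was -1.09 (SE 0.18, edgeR adjusted p = 0.00352), and the ISO change of 0.28 did not pass (edgeR adjusted p = 0.901). B2m (chromosome 2, 122147686 to 122153083) differed by -1.04 (SE 0.18, edgeR adjusted p = 0.00447), with 112, 153, 183 and 144 CPM in ISO day 7 hearts, 129, 133, 134 and 129 in ISO baseline hearts, 223, 298, 359 and 252 in LPS day 7 hearts and 122, 118, 131 and 118 in LPS baseline hearts. H2-D1 differed by -0.81 (SE 0.16, edgeR adjusted p = 0.0143), and reads shared between class I paralogs can be split either way. All 19 differences were below 0, with a median of -0.55; Psmb8, an immunoproteasome subunit, was at -0.61 (SE 0.16, edgeR adjusted p = 0.0975) and Tap1, the peptide transporter, at -0.53 (0.439). Without ISO day 7 replicate 3, 7 of the 19 were called, Psmb8 among them (edgeR adjusted p = 0.0392). Over all genes that fit called 320 of 15672.

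Of 9 tested MHC class II genes, 4 were called, H2-Aa, H2-Ab1 and H2-Eb1, which encode class II chains, and Cd74, the invariant chain. H2-Ab1 (chromosome 17, 34257689 to 34269419) stood at 25.4, 33.4, 29.5 and 25.1 CPM in ISO day 7 hearts and 31.3, 29.7, 28.5 and 29.9 in ISO baseline hearts, and at 42.9, 66.9, 56.4 and 62.7 CPM in LPS day 7 hearts, against 29.7, 30.43, 26.8 and 32.6 in LPS baseline hearts. LPS day 7 replicate 1 was the lowest of its group and still above the other 12 libraries. The difference was -1.01 (SE 0.19, edgeR adjusted p = 0.0106), close to those of H2-Aa (-1.14, 0.0179), H2-Eb1 (-1.14, 0.00736) and Cd74 (-1.03, 0.0374). The ISO changes of the 4 were -0.08, -0.15, -0.15 and -0.09 in that order, and 0 of them passed. The Cd74 call was lost without any 1 of 13 libraries (highest edgeR adjusted p = 0.108), and that of H2-Aa without ISO day 7 replicate 4 or ISO baseline replicate 1 (highest 0.057). Ciita, the class II transactivator, was at -0.96 (SE 0.37, edgeR adjusted p = 0.388) and H2-DMb2 at 1.13 (0.657). The class II list summed to 138 to 185 CPM in ISO day 7 hearts, 155 to 176 in ISO baseline hearts, 223 to 365 in LPS day 7 hearts and 148 to 168 in LPS baseline hearts.

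To show the sequence beside these antigen presentation and IRG genes, the bases before the start sites were read from RefSeq (GRCm38.p6), which held a promoter for 48 of the 72 genes. Over 250 bases upstream and on both strands, the core of the interferon-stimulated response element (GAAA, any 2 bases, GAAA) was in 4 of the 37 lower genes with a promoter (10.8%), 0 of the 11 higher genes and 3.46% of all 27025 genes with a promoter. CTGATTGG, the Y box of class II promoters, was in 3 of the 37 (8.11%), 0 of the 11 and 4.43% of all. Those 3 were H2-Aa, H2-Eb1 and the class I gene H2-D1, whose stretch is not shown. TTCNNNGAA, the gamma-activated site, was in 5 of the 37 (13.5%), 1 of the 11 and 8.13% of all. Gzma, also among the 4, is shown for the match on its opposite strand. A match describes letters in these windows only, and the motifs were chosen with the results known. The stretches below carry the first match in capitals, up to 50 bases on either side, 5′ to 3′ on the strand of the gene and ending before its start site; the first 4 show that core or its reverse complement and the last 2 show CTGATTGG.
B2m: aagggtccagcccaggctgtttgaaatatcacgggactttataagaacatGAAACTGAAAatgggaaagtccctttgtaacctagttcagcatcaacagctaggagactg
Igtp: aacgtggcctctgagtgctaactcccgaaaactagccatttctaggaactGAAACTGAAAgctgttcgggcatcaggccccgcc
Irgm2: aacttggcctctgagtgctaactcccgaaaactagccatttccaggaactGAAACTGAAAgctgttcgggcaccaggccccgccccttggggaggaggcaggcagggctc
Gzma: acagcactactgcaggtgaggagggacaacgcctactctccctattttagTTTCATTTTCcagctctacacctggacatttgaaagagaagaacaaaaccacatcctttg
H2-Aa: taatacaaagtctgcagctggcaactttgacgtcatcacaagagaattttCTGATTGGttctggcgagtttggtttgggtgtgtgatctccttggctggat
H2-Eb1: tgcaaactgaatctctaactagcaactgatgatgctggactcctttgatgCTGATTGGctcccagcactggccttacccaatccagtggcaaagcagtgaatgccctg
They lie at chr2:122147498-122147607 (B2m, plus strand), chr11:58199472-58199555 (Igtp, plus), chr11:58214863-58214972 (Irgm2, plus), chr13:113101019-113101128 (Gzma, minus), chr17:34287824-34287924 (H2-Aa, minus) and chr17:34305755-34305862 (H2-Eb1, plus). The match begins 139 bases before the start site in B2m, 34 in Igtp, 64 in Irgm2, 97 in Gzma, 51 in H2-Aa and 62 in H2-Eb1. The Igtp and Irgm2 stretches are nearly the same sequence.

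**Figure D3:**
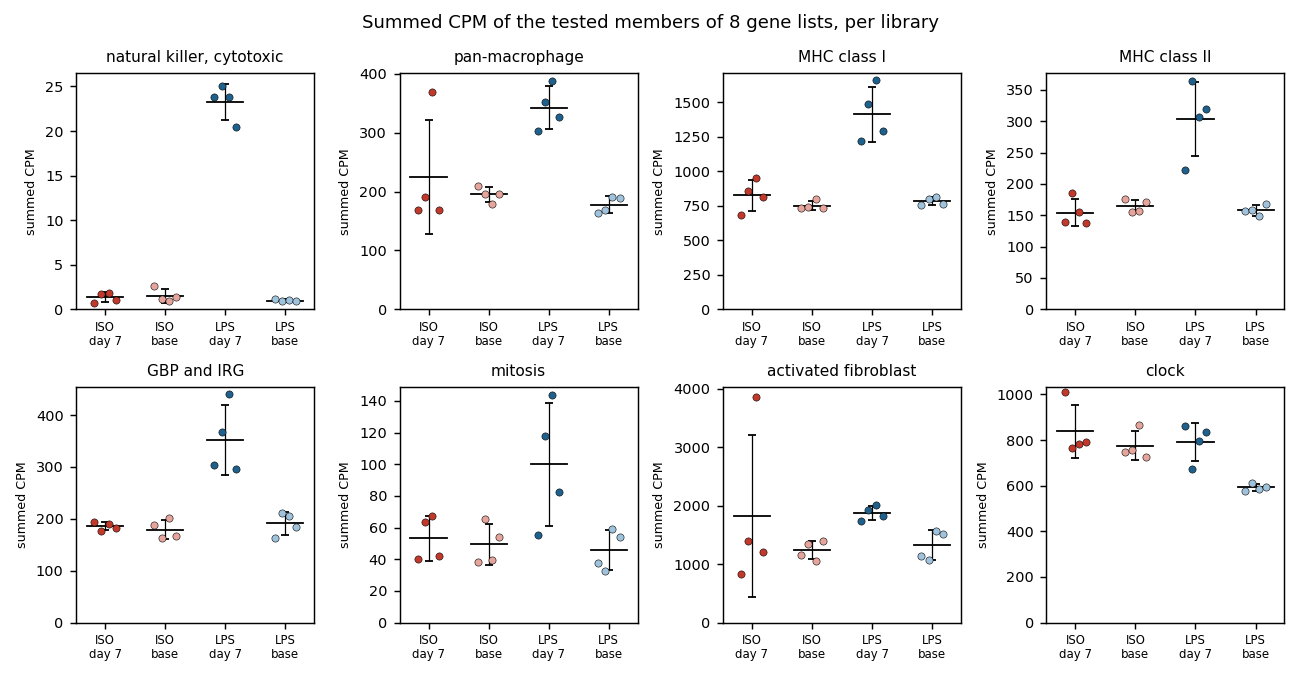
Summed CPM of the tested members of 8 gene lists in each of the 16 libraries, with group mean and SD; axes start at 0. Natural killer, MHC and GBP and IRG sums at LPS day 7 lie above all other libraries, while ISO day 7 replicate 3 is the highest ISO library for pan-macrophage (369 CPM) and activated fibroblast genes (3863 CPM).

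Among general leukocyte and macrophage genes, leaving out ISO day 7 replicate 3 changed many of the calls. Ptprc, the pan-leukocyte antigen CD45 (chromosome 1, 138062861 to 138175708), stood at 3.57, 4.14, 6.11 and 3.62 CPM in ISO day 7 hearts and 3.26, 4.61, 2.93 and 4.33 in ISO baseline hearts, and at 9.60, 9.54, 10.8 and 11.2 CPM in LPS day 7 hearts, against 2.68, 3.44, 3.79 and 3.68 in LPS baseline hearts. Replicate 3 was the highest ISO day 7 library and remained below every LPS day 7 library. The difference was -1.38 (SE 0.23, edgeR adjusted p = 0.00441), and -1.59 (0.000126) without that library. Itgal, the integrin chain of LFA-1, differed by -2.18 (SE 0.26, edgeR adjusted p = 8.42e-05), Selplg, the selectin ligand of leukocytes, by -1.52 (0.00395), and Rac2, a haematopoietic GTPase, by -1.54 (0.00596). Cytoskeletal genes of blood cells were also among the 57, namely Coro1a (-1.01), Lcp1 (-0.98), Myo1g (-1.64), Myo1f (-1.28) and Bin2 (-2.08). The calls of Coro1a, Lcp1 and Myo1f were lost without any 1 of 10, 10 and 12 libraries.

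The lower genes in this paragraph were in no list. Rbm3, a cold-inducible RNA-binding protein (chromosome X, 8138975 to 8145880), had 23.7, 27.5, 37.3 and 26.3 CPM in ISO day 7 hearts and 33.4, 31.7, 30.2 and 30.3 in ISO baseline hearts, and 42.9, 35.8, 39.2 and 37.2 CPM in LPS day 7 hearts, against 24.7, 26.3, 21.8 and 24.4 in LPS baseline hearts. Its LPS day 7 range overlapped ISO day 7 replicate 3, and its ISO baseline libraries lay above every LPS baseline library. The difference was -0.80 (SE 0.15, edgeR adjusted p = 0.00794), and the call held in all 31 alternatives. Gamt, which makes creatine, differed by -0.89 (SE 0.19, edgeR adjusted p = 0.0374), Il6ra, the interleukin-6 receptor, by -0.71 (0.0498), and Dstn, the actin-depolymerizing protein destrin, by -0.55 (0.0469). These 3 calls were lost without any 1 of 15, 14 and 14 of the 16 libraries. Tmem176a (-0.96) and Tmem176b (-0.60) are related genes whose annotations overlap, so the split of reads between them is uncertain. Cd52, a surface glycoprotein of lymphocytes (-1.62), Clec4a1, a C-type lectin (-1.22), Arhgap4 (-1.75), Arhgap30 (-1.16) and Nmral1 (-1.12) were also among the 57, with calls lost without any 1 of 8 (Arhgap30) to 15 (Arhgap4) libraries.

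Pan-macrophage genes had 2 of 17 called, Msr1, a scavenger receptor, and Fcer1g, the Fc receptor gamma chain, and all 17 rose at LPS day 7. The Fcer1g call was lost without any 1 of 12 libraries (highest edgeR adjusted p = 0.108), and that of Msr1 held whichever was left out. Msr1 had 1.20, 1.46, 2.30 and 1.23 CPM in ISO day 7 hearts and 1.67, 1.75, 1.52 and 1.52 in ISO baseline hearts, and 2.29, 2.89, 2.91 and 2.13 CPM in LPS day 7 hearts, against 0.905, 0.917, 1.15 and 0.870 in LPS baseline hearts. Its LPS day 7 range overlapped ISO day 7 replicate 3, and the LPS baseline libraries were the lowest. The difference was -1.46 (SE 0.27, edgeR adjusted p = 0.00806). Without ISO day 7 replicate 3, 14 of the 17 were called (320 of 15672 over all genes) and the median went to -1.23, against -0.92 with all libraries. Lyz2, lysozyme, shows this: it had 65.5, 64.5, 128 and 59.4 CPM in ISO day 7 hearts, 70.5, 65.9, 62.1 and 65.3 in ISO baseline hearts, 105, 128, 132 and 111 in LPS day 7 hearts and 60.6, 60.7, 66.1 and 67.8 in LPS baseline hearts, and its edgeR adjusted p was 0.349 with all libraries and 0.000126 without that one. Csf1r, the receptor that maintains macrophages, was at -0.54 (SE 0.22, edgeR adjusted p = 0.42) and at -0.80 (0.0038) without it. Of 12 resident cardiac macrophage genes 0 were called, with a median of -0.10, and 1 without replicate 3.

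Among 14 tested genes of recruited monocytes and dendritic cells, Itgal and Ly6c2, a monocyte surface antigen (-2.66, SE 0.58, edgeR adjusted p = 0.0374), were called. The Ly6c2 call was lost without any 1 of 10 libraries (highest edgeR adjusted p = 0.144). Itgax, the integrin CD11c, was at -2.96 (SE 0.68, edgeR adjusted p = 0.0556), and at -3.42 (0.0078) without ISO day 7 replicate 3. Ccr2, the receptor that recruits monocytes, was at -1.32 (SE 0.50, edgeR adjusted p = 0.382), and at -1.75 (0.046) without it. That library summed to 244 CPM over this list, and the other 3 ISO day 7 libraries to 81.1 to 99.5 CPM. Of 16 complement genes, 13 rose at LPS day 7 and 0 were called in the difference, while 8 were called without ISO day 7 replicate 3 (320 of 15672 over all genes). C1qa, a subunit of the complement starter C1q made by macrophages, had 22.5, 25.7, 47.1 and 23.9 CPM in ISO day 7 hearts, 31.3, 27.3, 25.4 and 29.6 in ISO baseline hearts, 56.3, 57.9, 66.6 and 56.4 in LPS day 7 hearts and 32.05, 30.39, 36.7 and 32.6 in LPS baseline hearts. Its difference was -0.78 (SE 0.23, edgeR adjusted p = 0.191), and -1.09 (0.000126) without replicate 3.

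Mitosis genes had a median difference of -1.73 over 25 tested members, with 0 called and 20 at an unadjusted edgeR p under 0.05; all 25 values were below 0. Mki67, the proliferation antigen Ki-67 (chromosome 7, 135689784 to 135716361), had 1.59, 5.70, 12.02 and 2.31 CPM in ISO day 7 hearts and 3.26, 4.36, 1.74 and 4.48 in ISO baseline hearts, and 7.39, 22.1, 29.9 and 14.1 CPM in LPS day 7 hearts, against 2.57, 1.34, 4.54 and 4.35 in LPS baseline hearts. Hearts within a group varied several-fold, and the LPS day 7 range met that of ISO day 7. The difference was -1.86 (SE 0.72, edgeR adjusted p = 0.398), and -2.62 (0.0411) without ISO day 7 replicate 3. In the LPS arm alone 23 of the 25 rose, and the summed CPM of the list still overlapped between the groups (39.9 to 67.4 at ISO day 7, 55.5 and above at LPS day 7). Without that replicate 6 of the 25 were called (320 of 15672 over all genes), including Mki67, Birc5, the survivin of dividing cells (-3.19), and Aurkb, a mitotic kinase (-3.35), while Top2a was not (-2.31, edgeR adjusted p = 0.0869). Of 21 DNA replication genes 0 were called, at a median of -0.33, and 2 were called without ISO day 7 replicate 3.

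**Figure D4:**
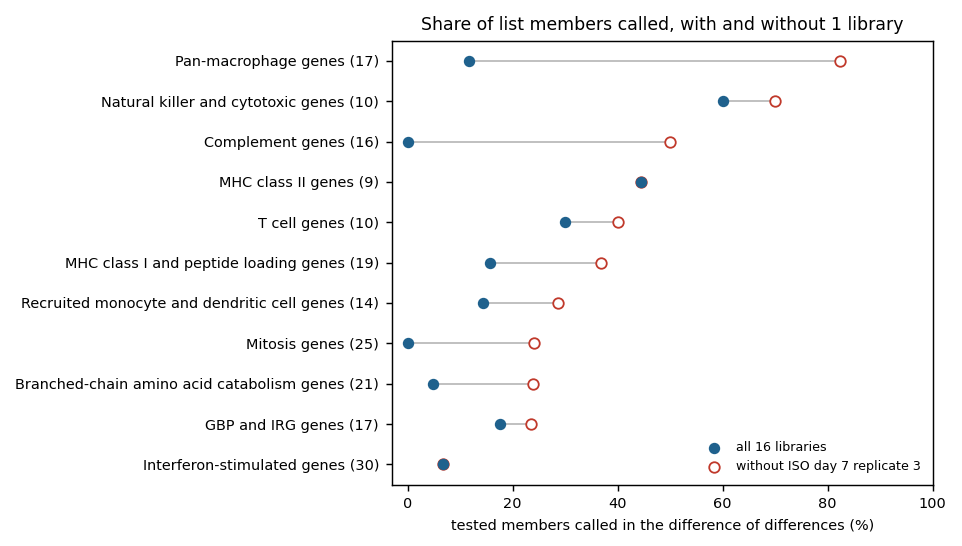
Share of the tested members of 11 gene lists called in the difference of differences, with all 16 libraries (filled) and without ISO day 7 replicate 3 (open); numbers in brackets are tested members. Without that library 14 of 17 pan-macrophage genes and 8 of 16 complement genes are called, against 2 and 0 with it, and natural killer genes differ little, at 7 of 10 against 6. Over all genes tested, calls also rise, from 72 of 15732 to 320 of 15672.

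The 15 genes with a higher change in the ISO arm were mostly well-expressed genes that fell moderately at LPS day 7. Both mitochondrial ribosomal RNAs were among them. mt-Rnr1, the 12S RNA of the small mitochondrial ribosomal subunit, stood at 3785, 3137, 2337 and 3373 CPM in ISO day 7 hearts and 3500.1, 3332, 3823 and 3548 in ISO baseline hearts. It stood at 1106, 1586, 1211 and 1639 CPM in LPS day 7 hearts, against 3055, 3038, 3078 and 3162 in LPS baseline hearts. The LPS day 7 libraries lay below all the others, and ISO day 7 replicate 3 was the lowest of the ISO arm. The difference was 0.98 (SE 0.17, edgeR adjusted p = 0.00485). mt-Rnr2, the 16S RNA of the large subunit, differed by 0.86 (SE 0.18, edgeR adjusted p = 0.0232), with 4185 to 7369.5 CPM in ISO day 7 hearts, 6238 to 6848 in ISO baseline hearts, 2941 to 4153 in LPS day 7 hearts and 6743 to 7167 in LPS baseline hearts. Its call was lost without any 1 of 9 libraries (highest edgeR adjusted p = 0.0781).

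Mitochondrially encoded genes for proteins, 13 in number, all had differences above 0, with a median of 0.30 that was 0.17 with library totals as the scaling, and 0 were called. mt-Co3, a cytochrome oxidase subunit, was at 0.41 (SE 0.13, edgeR adjusted p = 0.257), and at 0.49 (0.0371) without ISO day 7 replicate 3. In sum, mitochondrially encoded transcripts took 26.6% ± 1.84 of reads in ISO day 7 hearts, 26.8% ± 1.15 in ISO baseline hearts, 24.7% ± 1.27 in LPS day 7 hearts and 28.3% ± 0.756 in LPS baseline hearts (SD, n = 4 each). The libraries were made from poly-A selected RNA, and what the selection does to these RNAs was not tested. With mitochondrially encoded genes left out before scaling, 69 genes were called, all of them among the 72.

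The other higher genes are described one by one, and no theme over them was tested. Acadsb, a short and branched chain acyl-CoA dehydrogenase (chromosome 7, 131410601 to 131448944), stood at 125, 104, 95.3 and 109 CPM in ISO day 7 hearts and 103, 97.9, 108 and 101 in ISO baseline hearts, and at 70.2, 81.2, 73.7 and 82.3 CPM in LPS day 7 hearts, against 103, 107, 99.00 and 108 in LPS baseline hearts. Only the LPS day 7 libraries lay apart, below the rest, and the difference was 0.52 (SE 0.10, edgeR adjusted p = 0.0116). Abat, the mitochondrial GABA transaminase, had 18.6, 11.7, 15.4 and 14.5 CPM in ISO day 7 hearts and 10.3, 10.9, 12.04 and 12.4 in ISO baseline hearts, and 8.25, 8.18, 9.54 and 9.79 CPM in LPS day 7 hearts, against 12.6, 11.05, 11.9 and 13.3 in LPS baseline hearts. It differed by 0.85 (SE 0.16, edgeR adjusted p = 0.0121), with an ISO change of 0.40 and an LPS change of -0.45. Lonp1, a mitochondrial matrix protease, differed by 0.32 (SE 0.07, edgeR adjusted p = 0.0293), Bnip3, a protein of mitochondrial turnover, by 0.74 (0.0374), and Gaa, the lysosomal enzyme that breaks down glycogen, by 0.38 (0.0469). The remaining ones were Ano10, a member of the anoctamin family (1.02), Pla2g12a, a phospholipase A2 gene (0.63), Golga4, a Golgi protein (0.51), Ppip5k1, an inositol pyrophosphate kinase (0.46), Med25, a Mediator subunit (0.31), and the zinc finger genes Zfp180 (0.51) and Zfp651 (0.41). All 15 kept their sign under all 31 alternatives, but with library totals as the scaling 9 genes were called higher and 74 lower, and with log2(TPM + 0.1) 4 and 88. Baselines differed for Med25 (ISO baseline against LPS baseline -0.22, edgeR adjusted p = 0.0186), and ISO day 7 against LPS day 7 did not pass (0.09, 0.236). Abat, Pla2g12a, Acadsb, Golga4 and Zfp651 were called whichever single library was left out, but on neither log2(TPM) scale, where mt-Rnr1 was. The calls of Ano10, Zfp180, Gaa, Lonp1, Med25, Ppip5k1 and Bnip3 were lost without any 1 of 11 (Bnip3) to 13 (Ano10, Zfp180 and Gaa) libraries.

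**Figure D5:**
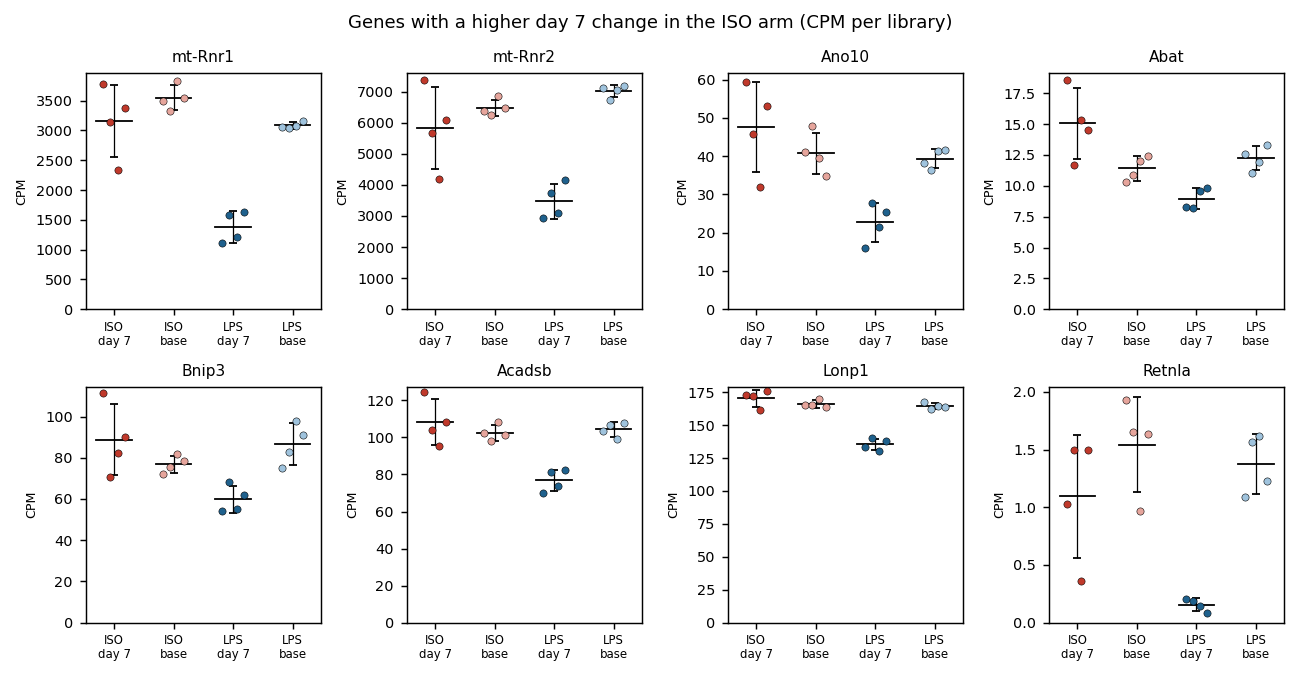
CPM of 8 of the 15 genes with a higher change in the ISO arm, in each of the 16 libraries, with group mean and SD; axes start at 0. The 4 LPS day 7 points lie below the other 12 for each gene, and ISO day 7 replicate 3 is the lowest ISO day 7 library for mt-Rnr1, mt-Rnr2, Ano10, Acadsb, Lonp1 and Retnla.

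Retnla, a secreted protein of alternatively activated macrophages, had the largest difference in this direction. It had 124 reads over ISO day 7, 155 over ISO baseline, 16 over LPS day 7 and 143 over LPS baseline. Its CPM was 1.02, 1.49, 0.361 and 1.49 in ISO day 7 hearts and 1.93, 1.65, 0.963 and 1.63 in ISO baseline hearts, and 0.204, 0.188, 0.140 and 0.0803 in LPS day 7 hearts, against 1.09, 1.57, 1.62 and 1.23 in LPS baseline hearts. ISO day 7 replicate 3 was again the lowest of its group. The difference was 2.63 (SE 0.55, edgeR adjusted p = 0.0277), or 2.92 (0.000578) without that library, and the call was lost without any 1 of 7 others (highest 0.0859).

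Branched-chain amino acid catabolism genes had 1 of 21 called, Acadsb, and 5 without ISO day 7 replicate 3 (320 of 15672 over all genes). In the LPS arm 13 of the 21 fell. The median difference was 0.17, 0.04 with library totals and 0.01 with log2(TPM + 0.1). Bckdha, a subunit of the dehydrogenase that commits branched-chain keto acids to breakdown, had 309.6, 276, 246 and 285 CPM in ISO day 7 hearts, 266, 256, 293 and 256 in ISO baseline hearts, 157, 188, 172 and 210.2 in LPS day 7 hearts and 254, 239, 229 and 239 in LPS baseline hearts. The LPS day 7 libraries were the lowest, and the difference of 0.46 (SE 0.12) had an edgeR adjusted p of 0.11, or 0.0244 without ISO day 7 replicate 3. Its partner subunit Bckdhb was at 0.27 (SE 0.12, edgeR adjusted p = 0.483), Bcat2, the first enzyme of the pathway, at 0.30 (0.329), and Ivd, isovaleryl-CoA dehydrogenase, at 0.44 (0.35). Bcat2 (edgeR adjusted p = 0.00526) and Ivd (0.0155) passed without ISO day 7 replicate 3. Nuclear oxidative phosphorylation genes had 0 of 30 called and a median of 0.10 that turned to -0.03 with library totals and -0.07 with log2(TPM + 0.1), and Ndufs1, a complex I subunit, was at 0.11 (SE 0.11, edgeR adjusted p = 0.854). Leaving out ISO day 7 replicate 3, 2 of the 30 were called higher. Of 26 fatty acid oxidation genes 0 were called, at a median of 0.09, and Pdk4, the kinase that shuts off pyruvate oxidation, did not pass (-0.35, SE 0.60, edgeR adjusted p = 0.928).

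Genes nearest to the targets of isoproterenol showed no called difference with all libraries and separate baselines. Of 15 adrenergic receptor and desensitization genes, 22 genes of cyclic AMP synthesis, breakdown and effect, 18 calcium handling genes and 18 cardiac potassium channel genes, 0 were called in any list, at medians of 0.00, 0.03, 0.08 and 0.07. Leaving out ISO day 7 replicate 3, 1 of the 15 adrenergic genes was called, with a lower change in the ISO arm. Adrb1, the main cardiac beta receptor, had 28.9, 28.9, 24.1 and 27.7 CPM in ISO day 7 hearts, 26.7, 27.2, 29.3 and 29.6 in ISO baseline hearts, 28.6, 31.05, 30.6 and 30.6 in LPS day 7 hearts and 24.6, 27.4, 30.45 and 29.3 in LPS baseline hearts. All 4 groups overlapped, and the difference was -0.16 (SE 0.26, edgeR adjusted p = 0.927). Kcna5, a voltage-gated potassium channel and the single gene called within the ISO arm, fell in both. It had 17.7, 20.85, 21.6 and 21.3 CPM in ISO day 7 hearts, 32.2, 28.1, 27.3 and 31.8 in ISO baseline hearts, 24.9, 23.1, 27.3 and 27.5 in LPS day 7 hearts and 40.99, 37.5, 33.9 and 32.6 in LPS baseline hearts. Day 7 lay below baseline without overlap in each arm, with a log2 change of -0.55 (SE 0.08, edgeR adjusted p = 0.0115) for ISO and -0.50 (SE 0.08, 0.000522) for LPS, and the difference between arms was -0.06 (SE 0.11, 0.946). With pooled baselines that difference was -0.34 (edgeR adjusted p = 0.0392), the single one of 31 alternatives in which it was called.

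Matrix and stress genes did not pass either. Postn, periostin of activated fibroblasts, had 14.9, 24.1, 221 and 20.2 CPM in ISO day 7 hearts, 19.8, 23.95, 15.96 and 24.7 in ISO baseline hearts, 26.3, 29.96, 32.4 and 29.5 in LPS day 7 hearts and 16.5, 14.1, 26.3 and 27.2 in LPS baseline hearts. Replicate 3 alone was high, and the difference was 1.24 (SE 0.78, edgeR adjusted p = 0.684) with it and -0.59 (0.334) without it. Activated fibroblast and matrix genes had 0 of 23 called, and their median was 0.20, or -0.50 without that library and -0.10 with log2(TPM + 0.1). Nppb, the B-type natriuretic peptide of strained myocardium, was at 0.26 (SE 0.46, edgeR adjusted p = 0.933), with 13.1 CPM in ISO day 7 replicate 1 and 49.4 to 67.2 CPM in the other 3 libraries of that group. Saa3, an acute-phase serum amyloid, had 6, 4, 43 and 35 reads over ISO day 7, ISO baseline, LPS day 7 and LPS baseline, and 1 LPS baseline library held most of the last (edgeR adjusted p = 0.997).

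B cell and immunoglobulin genes had 0 of 5 tested called, with Ighm, the IgM heavy chain, at -0.96 (SE 0.28, edgeR adjusted p = 0.184) and at -1.09 (0.046) without ISO day 7 replicate 3. Neutrophil genes had 0 of 11 called, at a median of -1.21, and 1 was called without ISO day 7 replicate 3. Erythroid genes had 0 of 7, at a median of -1.16, and their sum was 4200 CPM in LPS day 7 replicate 2 and 874 to 1332 CPM in the other 3 libraries of that group. In all, 9 of the 43 lists held a called gene, and 34 held none; without ISO day 7 replicate 3, 21 held one. Of the 728 listed genes 681 were tested, and 46 of the 72 called genes were in no list.

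The untreated hearts of the arms were compared to see how far the difference of differences rests on them. Between ISO baseline and LPS baseline 191 genes differed (1.21% of those tested), 116 higher (0.737%) and 75 lower (0.477%) in ISO baseline, and 2 of the 72, Spn and Med25, were among these. Baseline differences that were not called also enter the difference of differences, with the opposite sign. Their median was 0.26 over the 57 lower genes (-0.37 to 2.15) and -0.10 over the 15 higher genes, against 0.00 for all tested. For natural killer and T cell lists it was 0.75 and 0.38. The 72 genes were picked by a test that uses these baselines. Clock genes, which follow the time of day, were 3 higher and 1 lower of 19. Dbp, an output gene of the clock (chromosome 7, 45705088 to 45710203), had 159, 87.3, 87.7 and 87.3 CPM in ISO day 7 hearts, 74.7, 72.4, 107 and 70.2 in ISO baseline hearts, 139, 70.8, 111 and 120.3 in LPS day 7 hearts and 26.6, 36.9, 36.9 and 35.2 in LPS baseline hearts. LPS baseline was the lowest group without overlap, and ISO baseline lay 1.26 above it (SE 0.24, edgeR adjusted p = 0.00663). The difference of differences for Dbp, -1.33 (SE 0.33, edgeR adjusted p = 0.09), did not pass. Nr1d1, the clock repressor REV-ERB alpha, also differed between baselines (0.63, edgeR adjusted p = 0.00269; difference of differences -0.56, 0.128), and Arntl, the clock activator BMAL1, did not pass in either test (-0.97, 0.125; 0.81, 0.592). The labels give no time of day for any heart.

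Set directly against each other, ISO day 7 and LPS day 7 hearts differed in 1451 genes (9.22%), 707 higher (4.49%) and 744 lower (4.73%) in ISO day 7. With library totals 224 were higher and 2100 lower, and with log2(TPM + 0.1) 156 and 2429, at medians over all genes of -0.15 and -0.21. Of the 57 lower genes 56 were called lower there too, all but Nmral1, a redox sensor protein (-0.48, edgeR adjusted p = 0.0847), and of the 15 higher genes 14 were called higher, all but Med25. The direct comparison shares its libraries with the difference of differences, and it counts any standing difference between the arms as well as the agents' effects. With the baselines of both arms pooled into 1 group, which assumes no such standing difference, 1235 genes were called, 578 higher and 657 lower.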

How the data were processed

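Whole-heart poly-A RNA was measured in 23 libraries, and the 16 of the baseline and day 7 groups entered the comparisons. Per the submitters' processing notes, bcl2fastq, DRAGEN, edgeR, limma and the mm10 build were used, without versions; for the annotation release and the use of strand, the record was not given in the sources used here. The deposited files give, per the file headers, estimated counts per gene (55487 identifiers) made by the authors' quantification, and 9.50% of these values were not whole. The deposited files also give TPM per gene, which the authors' quantification scaled for gene length and library size, and effective lengths. Identifiers were named with GENCODE M21, which matched 55227, and the unmatched held at most 0.00573% of a library's reads.

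Estimated counts were rounded to whole numbers and fitted with edgeR 4.0.16 (R 4.3.3; quasi-likelihood F tests, two-sided) over all 23 libraries with 6 group means, TMM scaling and a filter on low counts (filterByExpr, minimum count 10), which left 15732 genes. Benjamini-Hochberg adjustment ran over all of them, with 0.05 as the threshold, and the common biological coefficient of variation was 11.0%. Standard errors are the log2 fold change over the square root of its F statistic. A list's sum covers its tested members, and no list was given a test of its own. Alternatives were other scalings and filters, DESeq2 1.42.0, limma 3.58.1 (voom, or log2 of TPM plus 0.1 or 1), replicate blocks, other sets of libraries and each library left out. Pairs of libraries within a group differed by more than counting error (chi-square over its degrees of freedom of 4.07 to 46.3), and all were kept as separate samples. A p-value sets a difference against the spread between hearts, which was estimated from all 23 libraries, the day 1 hearts included. With the 16 libraries alone the LPS day 7 change was called for 2054 genes in place of 1431.

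The rule for naming genes took the 12 lowest and the 12 highest differences among called genes with at least 5 CPM in some group, at most 4 members per list with a call, by adjusted p, and a panel of 20 genes. Members and lists were chosen with earlier results of these data known, and genes named outside that rule were chosen after their values were seen. These are Spn, Xcl1, Ctsw, Cxcr3, Sh2d2a, Ptpn22, Gimap3, Ltb, Ikzf1, Prf1, Gzmb, Klrk1, Ncr1, Klrb1c, Eomes, Coro1a, Lcp1, Myo1g, Myo1f, Bin2, Nmral1, Rbm3, Gamt, Il6ra, Dstn, Tmem176a, Tmem176b, Tcf7, Cd1d1, Satb1, Cd52, Clec4a1, Arhgap4, Arhgap30, Retnla, Lonp1, Med25, Gbp2, Tgtp1, Tgtp2, Gm4951, Tap1, Ciita, H2-DMb2, Lyz2, C1qa, Top2a, Birc5, Aurkb, Nr1d1 and mt-Co3. Some called genes are not reported here by name, and the counts include them. Promoter sequences are from RefSeq (GRCm38.p6).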

Additional observations from a re-analysis of the deposited data

Results flagged for a closer look

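In 42 genes and 15 list sums, 18 of 228 groups of 4 had 1 library whose gap to the nearest other was too wide for Dixon's test at the 95% level; chance flags about 1 in 20 groups. ISO day 7 replicate 3 stood apart with Postn at 221 CPM (others 14.95 to 24.1), Gm4841 at 1.18 CPM (0.566 to 0.597), pan-macrophage genes at 369 CPM (168 to 191) and recruited monocyte and dendritic cell genes at 244 CPM (81.1 to 99.5). ISO day 7 replicate 1 stood apart with Dbp at 159 CPM (87.3 to 87.7), clock genes at 1013 CPM (765 to 791) and mesothelial genes at 15.4 CPM (4.96 to 6.28). Among ISO baseline libraries, replicate 1 had Gm4841 at 3.45 CPM (0.266 to 0.485) and Igtp at 17.1 CPM (9.75 to 10.45), and replicate 3 had Irf7 at 9.19 CPM (8.48 to 8.58), Dbp at 107 CPM (70.2 to 74.7) and MHC class I and peptide loading genes at 797.5 CPM (732 to 737.5).

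In the LPS arm, day 7 replicate 3 had recruited monocyte and dendritic cell genes at 145 CPM (118 to 123) and day 7 replicate 2 had erythroid genes at 4200 CPM (874 to 1332). LPS baseline replicate 1 had Irgm2 at 18.1 CPM (19.9 to 20.25), Dbp at 26.6 CPM (35.2 to 36.9) and branched-chain amino acid catabolism genes at 3431 CPM (3212 to 3229). LPS baseline replicate 4 had Saa3 at 1.19 CPM (0 to 0.153).

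The day 7 change differed between the arms by the test of that difference in 72 genes (edgeR, adjusted p under 0.05). Among those described here it was lower in the ISO arm for Gzma (-5.53), Cd3e (-4.78), Nkg7 (-4.66), Gm4841 (-4.29), Il2rb (-3.80), BC023105 (-3.78), F830016B08Rik (-2.79), Igtp (-2.06), Irf7 (-1.87), Rac2 (-1.54), Selplg (-1.52), Iigp1 (-1.45), Ptprc (-1.38), Irgm2 (-1.38), H2-K1 (-1.09) and H2-Ab1 (-1.01). It was higher for Ano10 (1.02), mt-Rnr1 (0.98), mt-Rnr2 (0.86), Abat (0.85), Bnip3 (0.74), Pla2g12a (0.63), Acadsb (0.52), Zfp180 (0.51), Golga4 (0.51), Ppip5k1 (0.46), Zfp651 (0.41) and Gaa (0.38).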

How the results depend on the processing

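The 72 called genes kept their direction in all 31 alternatives, and 27 kept the call in all 31. The count of 72 became 141 with DESeq2, 111 with log2(TPM + 1) and 1235 with pooled baselines, and ran from 40 (without ISO baseline replicate 1) to 320 (without ISO day 7 replicate 3) with 1 library left out; 37 of the 72 were called whichever library was left out. The change at ISO day 7, called for 1 gene, gave 0 with library totals, with the 16 libraries alone, with a replicate block within each arm and on both log2(TPM) scales, 2 without a filter or with DESeq2, 3 with pooled baselines, and 0 to 1 with 1 library left out. The 1431 genes at LPS day 7 became 2511 with library totals, 2281 with log2(TPM + 1) and 2242 with pooled baselines, and 621 to 1789 with 1 library left out; without LPS day 7 replicate 3 there were 621, and without LPS baseline replicates 1 or 2 there were 774 or 761. ISO day 7 against LPS day 7 gave 2324 genes with library totals, 2585 with log2(TPM + 0.1), 2825 with log2(TPM + 1), and 671 (without LPS day 7 replicate 3) to 2239 (without ISO day 7 replicate 3) with 1 left out. The baselines differed in 316 genes with DESeq2, 337 with the 16 libraries alone, and 107 to 223 with 1 left out. Library totals moved the median of all genes to -0.13, and log2(TPM + 0.1) to -0.16. The causes were not tested.

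Correlations of same-numbered deviations ran from -0.11 to 0.16 over 24 pairs, 2 of them above 0.1. Differently numbered pairs were not compared, so whether replicate numbers pair the libraries was not tested. With a replicate block 62 genes were called (12 higher, 50 lower), and with a replicate block within each arm 48 (9 and 39). Of 3533 alternative values of 115 named results, 32 turned their sign, all in genes that were not called. With 1 library left out, Postn ran from -0.59 (without ISO day 7 replicate 3) to 1.58. For Nppb, difference of differences values were -0.0013 with voom, -0.18 and -0.17 on the TPM scales and -0.28 with pooled baselines, where Arntl was -0.16 and Nr1d1 0.0701. Kcna5 ran from -0.12 to 0.0041 (without ISO day 7 replicate 1) with 1 left out, and was -0.34 with pooled baselines, where alone it was called. Ndufs1 was -0.0216 with library totals and -0.0618 and -0.0615 on the TPM scales. Satb1 was 0.0216 with pooled baselines and -0.0533 to 0.0217 with 1 left out. Pdk4 was 0.12 with voom, 0.0582 with the block within each arm, 0.23 without ISO baseline replicate 4 and 0.35 without LPS day 7 replicate 2, and ran from -0.67 to that value with 1 left out. Saa3 was -0.0518 with library totals, -1.91 with voom, -0.0066 with the block within each arm, -0.29 with effective lengths, -1.39 and -0.35 on the TPM scales, -2.87 with pooled baselines, -1.70 without ISO day 7 replicate 3, -0.32 without ISO baseline replicate 4, -0.21 without LPS day 7 replicate 4 and -2.25 without LPS baseline replicate 4, the lowest of a range up to 0.55 with 1 left out. Depth limits low genes: 27 of the 57 lower genes stayed under 5 CPM in their highest group.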

Other observations

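Mesothelial genes, which mark the outer lining of the heart, had the highest median difference of the 43 lists, at 1.63 over 6 tested members with 0 called. Their sum was 4.96 to 15.4 CPM in ISO day 7 hearts, 4.97 to 6.89 in ISO baseline hearts, 5.26 to 14.7 in LPS day 7 hearts and 5.21 to 11.2 in LPS baseline hearts. The group means were 8.11, 5.75, 8.44 and 7.72 CPM in that order, and in ISO day 7 hearts replicate 1 alone was above 6.28 CPM. These low counts also differed between the baselines, at a median of -1.14 for ISO baseline against LPS baseline, with 0 called. Cytosolic ribosomal protein genes had 0 of 25 called in the difference, although 6 of the 25 were higher in ISO baseline than in LPS baseline hearts. Endotoxin sensing and NF-kB feedback genes had 0 of 18 called at a median of -0.14, or 1 without ISO day 7 replicate 3, and 4 of the 18 rose at LPS day 7.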
